A study of Homo sapiens with 8 samples.

Results

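Axon guidance ligands and receptors were followed in 92.1 cells, an established human uveal melanoma line, after 24 h with trametinib plus panobinostat (the combination), trametinib alone, panobinostat alone or vehicle (DMSO). All gene symbols that name a class 3 to 7 semaphorin, a plexin, a neuropilin, an EPH receptor, an ephrin, a SLIT, a netrin, a netrin-G, an UNC5 receptor or DCC were taken, which gave 66 of the 18406 genes of the table. Each single drug was used at 10 nM. The label of the combination gives 10 nM once for both drugs, and 10 nM of each is an assumption on which the comparisons with the single drugs rest. Trametinib blocks MEK1 and MEK2, the kinases that switch on ERK, and panobinostat inhibits histone deacetylases; the panobinostat label also calls that drug a MEK inhibitor, and the drug name was followed. RNA was sequenced from 2 libraries per group, 8 in all, and the line is a single cell line grown in culture with no other cell type added. No source states that the replicates were separate cultures, so p-values cannot be read as measuring spread between cultures. They rest on the spread between these libraries, pooled over the 4 groups and drawn in part from all genes tested.

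Guidance proteins tell migrating cells and growing axons where to go. Semaphorins act through plexins, with neuropilins as co-receptors for most secreted class 3 semaphorins. Ephrins bind EPH receptor tyrosine kinases on neighbouring cells, and signals can pass into both cells. SLITs act through ROBO receptors, and netrins through DCC, neogenin and the UNC5 family. Melanocytes arise from the neural crest, whose migrating cells use these same cues, and several members are studied in melanoma for their roles in migration, vessel growth and cell survival.

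Values are the authors' normalised values, in which a single read counted for 0.6018 to 1.521, depending on the library. Recovered depth was 6897784 to 16861001 reads. DUSP6, a phosphatase whose transcript depends on ERK activity, was at 3.51 and 4.56 in the combination, 0 and 0 with trametinib alone, 627 and 583 with panobinostat alone and 577 and 567 in vehicle, and was thus not lower with panobinostat alone than in vehicle. H1F0, taken as a check on histone deacetylase inhibition, was at 1.02 at most in any library and checks nothing. CDKN1A, a cell cycle inhibitor known to rise with histone deacetylase inhibitors, was at 5237 and 5223 in the combination, 1855 and 2158 with trametinib alone, 3579 and 3611 with panobinostat alone and 2564 and 2601 in vehicle. Its log2 change against vehicle (± standard error) was 1.02 ± 0.075 (limma adjusted p = 4.79e-06) in the combination, -0.37 ± 0.075 (limma adjusted p = 0.00269) with trametinib and 0.48 ± 0.075 (limma adjusted p = 0.00143) with panobinostat. SPRY4, a feedback inhibitor whose transcript depends on ERK, was at 4.68 and 7.61 in the combination, 3.01 and 11.1 with trametinib alone, 5265 and 5217 with panobinostat alone and 2838 and 2849 in vehicle, lower in both groups with trametinib than in the other groups. Of 8 melanocyte markers 7 were in the table and carried high sums in every group, of 137486 to 138966 in the combination, 167229 to 175142 with trametinib, 99938 to 103741 with panobinostat and 103558 to 111479 in vehicle. The sums do not stand for each marker: DCT had group means of 247, 1948, 7.59 and 9.6 in the same order. All 3 endothelial markers and both leukocyte markers had group means of at most 1.53 and 5.85, and CDH5, the endothelial cadherin, was at 0 in all libraries. Both neuronal markers had group means of at most 17.8 and both epithelial markers of at most 38.6. The 5 fibroblast markers, led by COL1A1 and LUM, summed to 1239 to 1295 in the combination, 761 to 990 with trametinib, 974 to 1000 with panobinostat and 391 to 409 in vehicle, and DCN and PDGFRB had group means of at most 5.27. The part of the fibroblast list in the results was not tested.

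Trametinib replicate 2 stood apart: 5362 of 18406 genes were at 0 there, against 3743 in trametinib replicate 1 and 2222 to 2890 in the other 6 libraries. Of the 52 members abundant enough to test, 7 were at 0 in it (SEMA3E, SEMA6C, PLXNA4, EPHA2, EPHA3, EPHA7 and EPHB3), 1 in vehicle replicate 1 (UNC5D) and 0 in each of the other 6 libraries. The recovered depth of trametinib replicate 2 was 10528784 reads, above the 9017593 and 6897784 of the combination libraries. Of its detected genes 2.1% had 1 to 5 reads, against 6.74% in trametinib replicate 1 and 9.93% to 13.3% in the others. The trametinib replicates correlated at r = 0.897, against 0.974 to 0.991 in the other groups. The cause was not tested. The submitters' processing notes list a genome build for the vehicle and trametinib libraries only. No source used here says whether those 4 libraries and the 4 with panobinostat were handled together, so panobinostat and any such difference cannot be told apart. Where a call below ended when 1 library was left out, the libraries are named with the log2 change obtained without each, and "either" library means each of a group's libraries in turn. Changes are given as log2 of the first group named over the other, ± the standard error of the fit, with 2 libraries per group.

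Semaphorins, the largest family, had the most rises by number: of 17, 8 rose in the combination, 6 with trametinib and 10 with panobinostat, each against vehicle. Among all tested genes 24.5%, 23.7% and 15.0% rose in the same order. With trametinib 2 semaphorins fell. A larger share rose in several smaller families. In the combination these were EPHA receptors (3 of 6), EPHB receptors (2 of 4) and neuropilins, SLITs, netrin-Gs and UNC5 receptors (1 of 2 each). With trametinib they were plexins (4 of 8), ephrin-As (2 of 5) and neuropilins and UNC5 receptors (1 of 2 each). The only netrin tested, NTN4, rose in all 3 treatments. Receptors moved in both directions in all 3 treatments, and so did ligands with trametinib, where 10 rose and 4 fell. Against vehicle, the secreted semaphorin SEMA3C rose in all 3 treatments, the ephrin receptor EPHA2 fell to near 0 with trametinib, and EPHA3 was at 398 and 383 in the combination and at most 38.3 in any other library. Of the 66 members, 52 had a mean value of at least 10 over the 8 libraries and were tested among 13320 genes. A member was called at a Benjamini-Hochberg adjusted p under 0.05 in limma on log2(value + 1), a scale that understates changes of low genes. In all, 39 of the 52 were called in at least 1 of 6 comparisons, and 13 in none. The 3 comparisons with vehicle share the vehicle libraries and are given side by side, and in such bulk samples fewer cells with a transcript and less of it per cell cannot be told apart.

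In the combination against vehicle, 24 members rose, 5 fell and 23 did not pass, against 24.5% of all tested genes rising and 25.5% falling, with a median log2 change of 0.70 for the members and 0.03 for all genes. All 5 that fell were receptors: of 30 ligands 14 rose and 0 fell, and of 22 receptors 10 rose and 5 fell. The share called was 55.8% of the members, 46.7% of ligands and 68.2% of receptors, beside 50% of all genes. With trametinib alone, 17 rose, 9 fell and 26 did not pass, against 23.7% rising and 27.4% falling among all genes. Of 30 ligands 10 rose and 4 fell, and of 22 receptors 7 rose and 5 fell. The members' share of calls, 50%, was near the background of 51.0%, and their median log2 change was 0.22 beside -0.07. Without vehicle replicate 1 the count of rises was 11, and without trametinib replicate 1 the count of falls was 16. With panobinostat alone, 22 rose, 6 fell and 24 did not pass, a share called of 53.8% beside 30.5% of all genes. Of all genes 15.0% rose and 15.6% fell, and the medians were 0.61 for the members and 0.00 for all genes. All 16 ligands called there rose, and the 12 called receptors were split 6 and 6. The panobinostat count rested on both groups: rises numbered 12 without panobinostat replicate 1, 9 without panobinostat replicate 2 and 12 without either vehicle library, and falls numbered 3 without panobinostat replicate 1, 2 without vehicle replicate 1 and 3 without vehicle replicate 2.

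**Figure D1:**
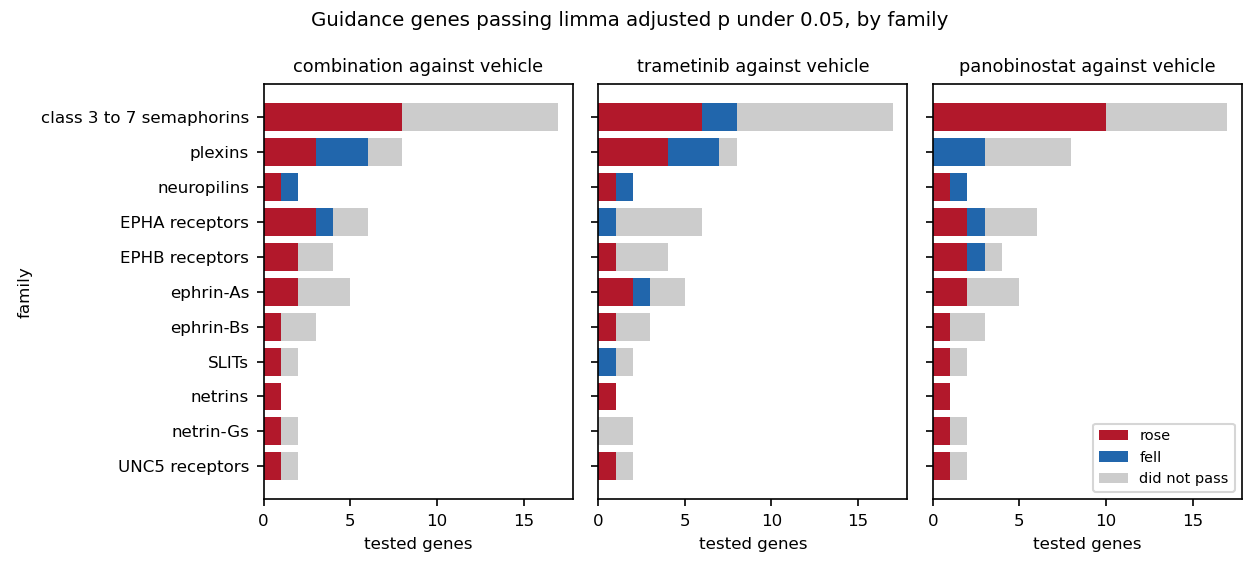
Number of tested guidance genes (x axis) that rose, fell or did not pass limma's adjusted p of 0.05 in each family (y axis), for the combination, trametinib and panobinostat against vehicle. Semaphorins were called as rising in 8, 6 and 10 of 17 cases across these panels, and as falling in 2 with trametinib. Among all tested genes, 24.5%, 23.7% and 15.0% rose and 25.5%, 27.4% and 15.6% fell. Called plexins were split between rises and falls in the combination and with trametinib (3 and 3, 4 and 3) and all fell with panobinostat (3).

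Adding panobinostat to trametinib raised 18 members and lowered 6, with 28 not passing, a share called of 46.2% beside 32.8% of all genes, with 17.6% rising and 15.2% falling among all genes. The median log2 change was 0.45 for the members and 0.06 for all genes. Rises numbered 7 without combination replicate 1 and 9 without combination replicate 2. Adding trametinib to panobinostat raised 7 and lowered 3, with 42 not passing, a share of 19.2% beside 24.0% of all genes, with 10.9% rising and 13.1% falling, and the medians were 0.08 and 0.01. There, rises numbered 4 without either combination or either panobinostat library and 11 without either trametinib library, and falls numbered 9 without trametinib replicate 1 and 8 without trametinib replicate 2.

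**Figure D2:**
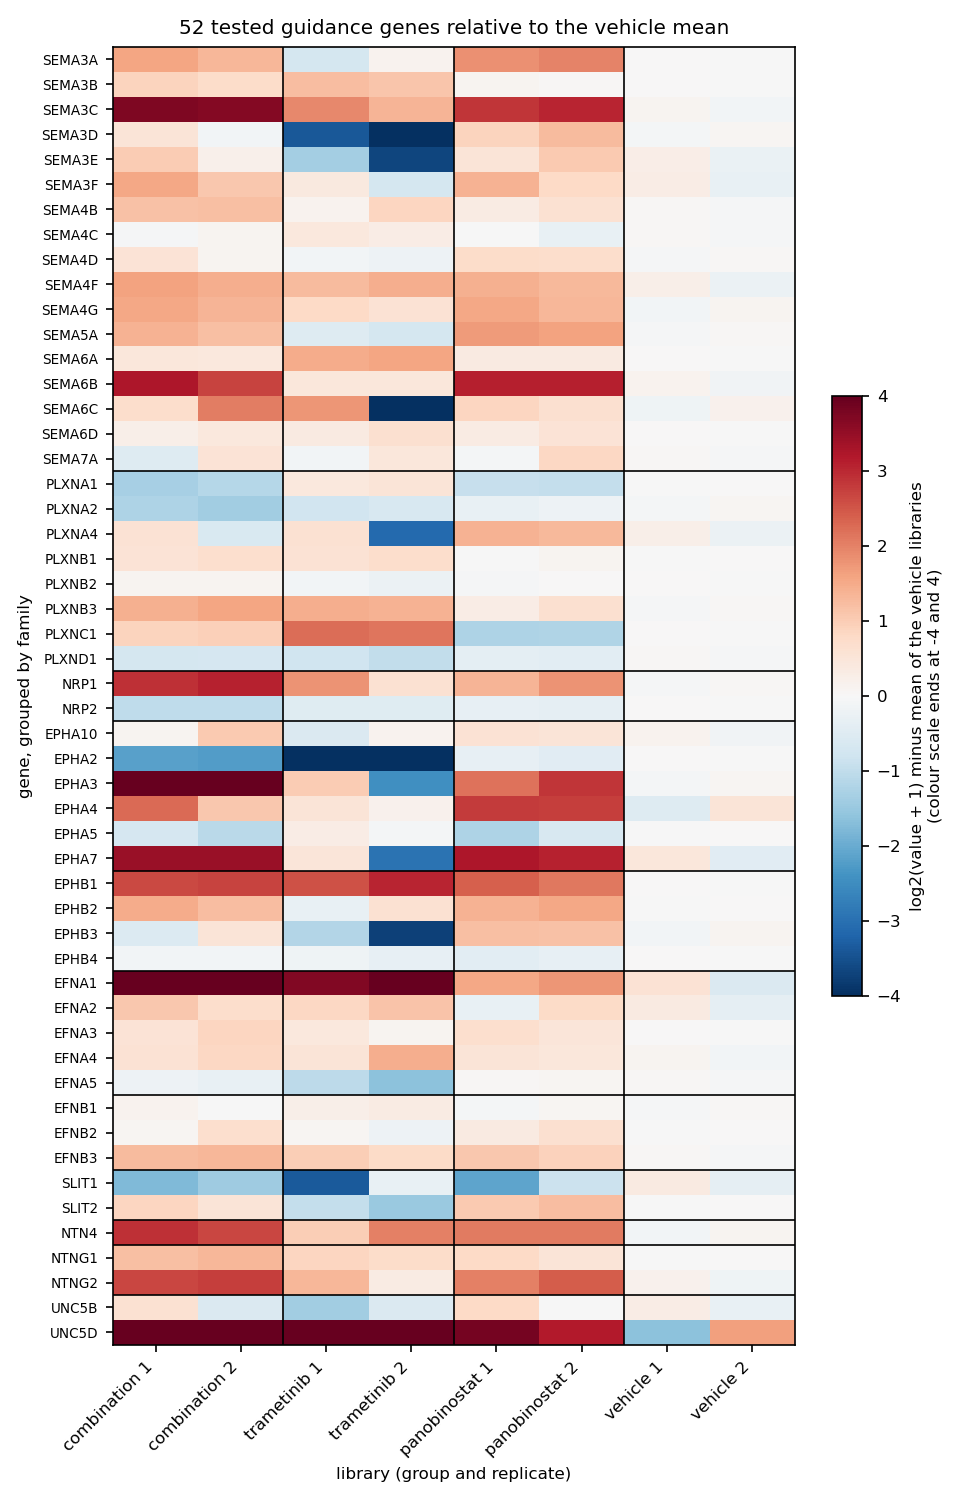
Log2(value + 1) of each tested guidance gene (rows, grouped by family) in each of the 8 libraries (columns), minus the mean of the vehicle libraries; red is higher and blue lower, and the colour scale ends at -4 and 4. SEMA3C, EFNA1 and UNC5D are red in all 6 treated libraries, EPHA2 is darkest blue in both trametinib libraries, and 7 genes at 0 in trametinib replicate 2 are blue there.

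Levels can be set between genes only per length, so group means were divided by the merged exon length of each gene in GENCODE v29. On that scale, a level per kilobase, SEMA6A was the highest member in all 4 groups, at 2621 in the combination, 5586 with trametinib, 2460 with panobinostat and 1918 in vehicle. The plexins PLXNB2, PLXNC1 and PLXNA1 followed in vehicle, at 541, 437 and 344 per kilobase. NRP2 was the higher neuropilin in vehicle (202 against 3.37 for NRP1), EPHB4 the highest EPHB receptor (145), EPHA2 the highest EPHA receptor (84.1) and EFNA3 the highest ephrin (126). SLIT2 at 22.2 per kilobase led the SLITs, NTN4 at 5.84 the netrins, NTNG1 at 3.36 the netrin-Gs and UNC5B at 4.52 the UNC5 receptors. With trametinib EPHA5, at 18.6 per kilobase, was the highest EPHA receptor and EPHA2 was at 2.02. In the combination EPHA3 led them at 58.5, with EPHA2 at 18.

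**Figure D3:**
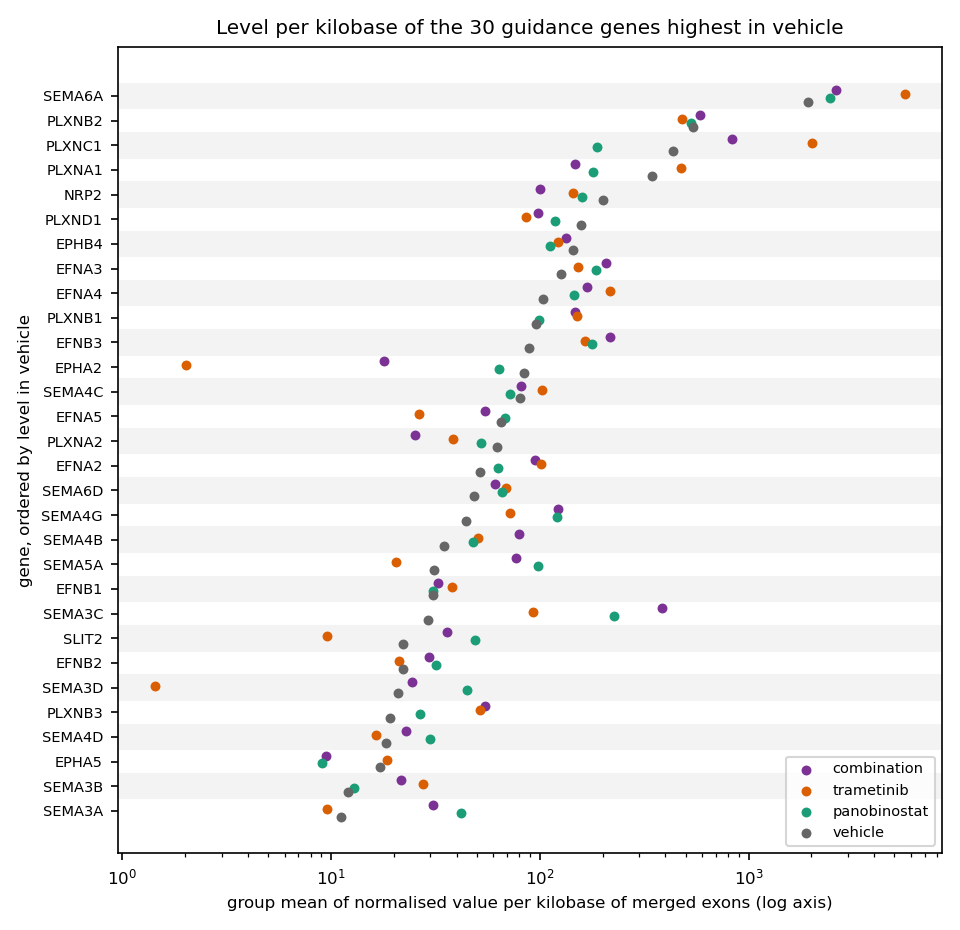
Group mean of the normalised value per kilobase of merged exons (x axis, log scale) for the 30 guidance genes with the highest level in vehicle (y axis, in that order), with 1 point per group. SEMA6A is at the top in all groups, and EPHA2 and SEMA3D have their lowest points with trametinib.

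Of the 66 members, 55 had a promoter in the RefSeq table (GRCh38.p14), from 250 bases before to 50 after the gene's start. Promoters are shown for 4 members picked after their values were seen, which are not the 4 of largest change. These were EPHA2, which fell with trametinib, PLXNC1, which rose with it, and EPHA3 and SEMA3C, which were highest in the combination. They lie at chr1:16156020-16156319 on the minus strand, chr12:94262369-94262668 on the plus strand, chr3:89107371-89107670 on the plus strand and chr7:80922340-80922639 on the minus strand, and are written 5′ to 3′ in the direction of the gene.
EPHA2: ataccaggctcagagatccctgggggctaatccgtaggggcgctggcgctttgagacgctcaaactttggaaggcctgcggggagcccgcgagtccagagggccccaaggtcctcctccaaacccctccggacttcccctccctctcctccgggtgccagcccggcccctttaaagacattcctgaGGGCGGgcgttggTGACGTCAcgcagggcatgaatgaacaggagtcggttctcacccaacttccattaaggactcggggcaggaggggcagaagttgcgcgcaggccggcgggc
PLXNC1: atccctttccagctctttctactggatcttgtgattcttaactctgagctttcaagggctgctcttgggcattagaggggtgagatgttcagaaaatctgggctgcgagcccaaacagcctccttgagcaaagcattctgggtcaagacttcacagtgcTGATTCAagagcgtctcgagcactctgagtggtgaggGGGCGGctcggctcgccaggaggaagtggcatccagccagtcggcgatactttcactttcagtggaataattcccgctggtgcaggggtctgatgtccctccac
EPHA3: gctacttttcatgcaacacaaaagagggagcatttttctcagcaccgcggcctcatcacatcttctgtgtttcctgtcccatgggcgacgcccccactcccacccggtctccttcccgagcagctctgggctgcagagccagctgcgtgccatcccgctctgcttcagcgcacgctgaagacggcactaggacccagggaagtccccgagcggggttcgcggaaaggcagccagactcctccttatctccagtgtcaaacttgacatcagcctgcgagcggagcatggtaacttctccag
SEMA3C: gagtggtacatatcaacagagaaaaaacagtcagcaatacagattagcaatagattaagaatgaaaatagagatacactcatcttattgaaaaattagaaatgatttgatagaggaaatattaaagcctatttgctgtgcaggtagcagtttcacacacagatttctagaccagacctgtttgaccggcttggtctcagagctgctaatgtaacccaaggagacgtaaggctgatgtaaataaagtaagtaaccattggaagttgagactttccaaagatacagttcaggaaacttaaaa
Capitals mark matches, on either strand, to 6 motifs: TGANTCA (AP-1), TGACGTCA (CRE), CACGTG (E-box), CATGTG (M-box), CCGGAAG (ETS) and GGGCGG (GC box), none of which overlap in these promoters. EPHA2 held a CRE match from base 200 to 207 and a GC box match, counted from 1 at the 5′ end. PLXNC1 held a GC box match and, from base 160 to 166, TGATTCA. That stretch matched the letters searched for AP-1 through their open middle base N. The EPHA3 and SEMA3C windows held none of the letters searched. Among all 35116 promoters of this length the share with a match was 7.71% for AP-1, 1.85% for CRE, 7.26% for the E-box, 11.1% for the M-box, 10.3% for ETS and 45% for the GC box. Among the 55 members it was 1.82%, 3.64%, 7.27%, 9.09%, 3.64% and 76.4% in the same order. The 35116 promoters, unlike those of the members, were not limited to genes of the table or to 1 per symbol, so the sets are unlike. A match is a description of the letters and says nothing of a factor's binding. The SEMA3C window had a GC content of 36%, against 64.3% for EPHA2, 59.7% for EPHA3 and 53.7% for PLXNC1.

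Class 3 semaphorins are secreted ligands. SEMA3C, which signals through neuropilins with plexins, had values of 2078 and 1976 in the combination, 588 and 393 with trametinib alone, 1132 and 1269 with panobinostat alone and 166 and 143 in vehicle. All 6 treated libraries lay above both vehicle libraries, and the groups did not overlap. The log2 change against vehicle was 3.71 ± 0.18 (limma adjusted p = 3.65e-07) in the combination, 1.64 ± 0.18 (limma adjusted p = 5.09e-05) with trametinib and 2.95 ± 0.18 (limma adjusted p = 1.05e-05) with panobinostat. Between treatments, the combination was above trametinib by 2.07 ± 0.18 (limma adjusted p = 3.71e-05), and above panobinostat by 0.76 ± 0.18 (limma adjusted p = 0.0123), a call that ended without either combination library (0.72 and 0.79) or either panobinostat library (0.67 and 0.84).

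SEMA3D, another secreted semaphorin, was at 207 and 135 in the combination, 13 and 7.03 with trametinib alone, 271 and 354 with panobinostat alone and 138 and 153 in vehicle. Both trametinib libraries stood far below the other 6, and the combination libraries overlapped vehicle. Trametinib alone changed it by -3.78 ± 0.36 (limma adjusted p = 2.44e-05), whereas the combination differed from vehicle by 0.21 ± 0.36 (limma adjusted p = 0.669) and from trametinib by 3.99 ± 0.36 (limma adjusted p = 5.75e-05). Panobinostat alone gave 1.09 ± 0.36 (limma adjusted p = 0.048), a call that ended without either combination library (1.09) or either panobinostat library (1.28 and 0.90) or either vehicle library (1.01 and 1.16). SEMA3A, a repellent that binds NRP1, was at 282 and 233 in the combination, 57.2 and 102 with trametinib alone, 332 and 368 with panobinostat alone and 93.3 and 92.6 in vehicle. Its 4 libraries with panobinostat were above the other 4, by 1.45 ± 0.28 (limma adjusted p = 0.00211) for the combination and 1.90 ± 0.28 (limma adjusted p = 0.00112) for panobinostat against vehicle and by 1.73 ± 0.28 (limma adjusted p = 0.00158) for the combination against trametinib. Trametinib alone did not pass (-0.28 ± 0.28). SEMA3B had values of 76.1 and 66.9 in the combination, 96.3 and 87.4 with trametinib alone, 43.8 and 41.3 with panobinostat alone and 40.9 and 39.6 in vehicle. It was higher with trametinib than in vehicle by 1.17 ± 0.34 (limma adjusted p = 0.0179), and that call ended without either vehicle library (1.19 and 1.15).

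Class 4 to 7 semaphorins are anchored in the membrane. SEMA6A, which binds the plexins PLXNA2 and PLXNA4, was the most abundant member, at 24419 and 23892 in the combination, 49786 and 53179 with trametinib alone, 22831 and 22524 with panobinostat alone and 17864 and 17486 in vehicle. Trametinib alone gave the highest values, and the combination lay near panobinostat, with no overlap between vehicle and any treatment. The change against vehicle was 0.45 ± 0.047 (limma adjusted p = 4.32e-05) in the combination, 1.54 ± 0.047 (limma adjusted p = 2.58e-08) with trametinib and 0.36 ± 0.047 (limma adjusted p = 0.000542) with panobinostat. From trametinib to the combination it changed by -1.09 ± 0.047 (limma adjusted p = 9.16e-07). SEMA6B had values of 74.9 and 51.7 in the combination, 10 and 10 with trametinib alone, 68.3 and 68.6 with panobinostat alone and 7.82 and 6.33 in vehicle. The 4 libraries with panobinostat were the high ones, and trametinib lay close to vehicle. Its change against vehicle was 2.98 ± 0.54 (limma adjusted p = 0.00145) in the combination and 3.11 ± 0.54 (limma adjusted p = 0.00258) with panobinostat, and 0.46 ± 0.54 with trametinib did not pass. The combination exceeded trametinib by 2.52 ± 0.54 (limma adjusted p = 0.00688), a call that ended without combination replicate 1 (2.26). SEMA6D was at 424 and 482 in the combination, 462 and 560 with trametinib alone, 457 and 527 with panobinostat alone and 363 and 360 in vehicle. Its rises of 0.49 ± 0.14 (limma adjusted p = 0.0178) with trametinib and 0.44 ± 0.14 (limma adjusted p = 0.0444) with panobinostat ended when 1 library was left out, the first without either vehicle library (0.50 and 0.49) and the second without either combination library (0.44) or either panobinostat library (0.54 and 0.34) or either vehicle library (0.45 and 0.43).

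SEMA5A, a ligand of PLXNB3, was at 971 and 847 in the combination, 256 and 224 with trametinib alone, 1200 and 1114 with panobinostat alone and 355 and 379 in vehicle. Libraries with panobinostat were above vehicle and those with trametinib alone below it, with no overlap. Against vehicle it changed by 1.30 ± 0.12 (limma adjusted p = 2.37e-05) in the combination, -0.61 ± 0.12 (limma adjusted p = 0.00256) with trametinib and 1.65 ± 0.12 (limma adjusted p = 2.63e-05) with panobinostat, and the combination differed from trametinib by 1.92 ± 0.12 (limma adjusted p = 7.73e-06). SEMA4G was at 569 and 505 in the combination, 341 and 290 with trametinib alone, 572 and 493 with panobinostat alone and 179 and 211 in vehicle, highest in the 4 libraries with panobinostat. It rose by 1.46 ± 0.16 (limma adjusted p = 5.64e-05) in the combination and 1.45 ± 0.16 (limma adjusted p = 0.000203) with panobinostat. A rise of 0.69 ± 0.16 (limma adjusted p = 0.00527) with trametinib ended without vehicle replicate 1 (0.58), and the difference of the combination from trametinib, 0.77 ± 0.16 (limma adjusted p = 0.00562), ended without combination replicate 1 (0.68). SEMA4F had values of 194 and 173 in the combination, 153 and 174 with trametinib alone, 170 and 155 with panobinostat alone and 73.4 and 53 in vehicle. All treated libraries exceeded vehicle, by 1.54 ± 0.25 (limma adjusted p = 0.000706) in the combination, 1.37 ± 0.25 (limma adjusted p = 0.00142) with trametinib and 1.37 ± 0.25 (limma adjusted p = 0.00324) with panobinostat.

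SEMA4B was at 311 and 316 in the combination, 150 and 248 with trametinib alone, 170 and 207 with panobinostat alone and 142 and 131 in vehicle, highest in the combination, which exceeded vehicle by 1.20 ± 0.25 (limma adjusted p = 0.00308). SEMA4D, the ligand of PLXNB1, was at 236 and 175 in the combination, 152 and 142 with trametinib alone, 271 and 265 with panobinostat alone and 157 and 169 in vehicle. Panobinostat alone raised it by 0.71 ± 0.21 (limma adjusted p = 0.0274), a call that ended without either panobinostat library (0.70 and 0.73) or either vehicle library (0.66 and 0.77). SEMA4C, a ligand of PLXNB2, was called in no comparison, with values between 230 and 382. SEMA7A, the ligand of PLXNC1, was also called in none and lay between 11.7 and 31.3. SEMA3F (11.1 to 57.4) and SEMA6C (0 to 91.3) passed nowhere, where parentheses give the lowest and highest library. SEMA6C read 75.2 and 0 in the trametinib replicates, so its trametinib change of -1.36 ± 1.6 turned to 1.77 without trametinib replicate 2 and was -4.49 without replicate 1, and each of those would have passed. SEMA3E had at most 25.2 in any library, and its difference in the combination against trametinib, 3.11 ± 1 (limma adjusted p = 0.0406), ended without either combination library (2.71 and 3.51) or either panobinostat library (3.11) or either vehicle library (3.11). SEMA3G, SEMA4A and SEMA5B were not tested, with highest values of 9.5, 19.1 and 24.1.

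**Figure D4:**
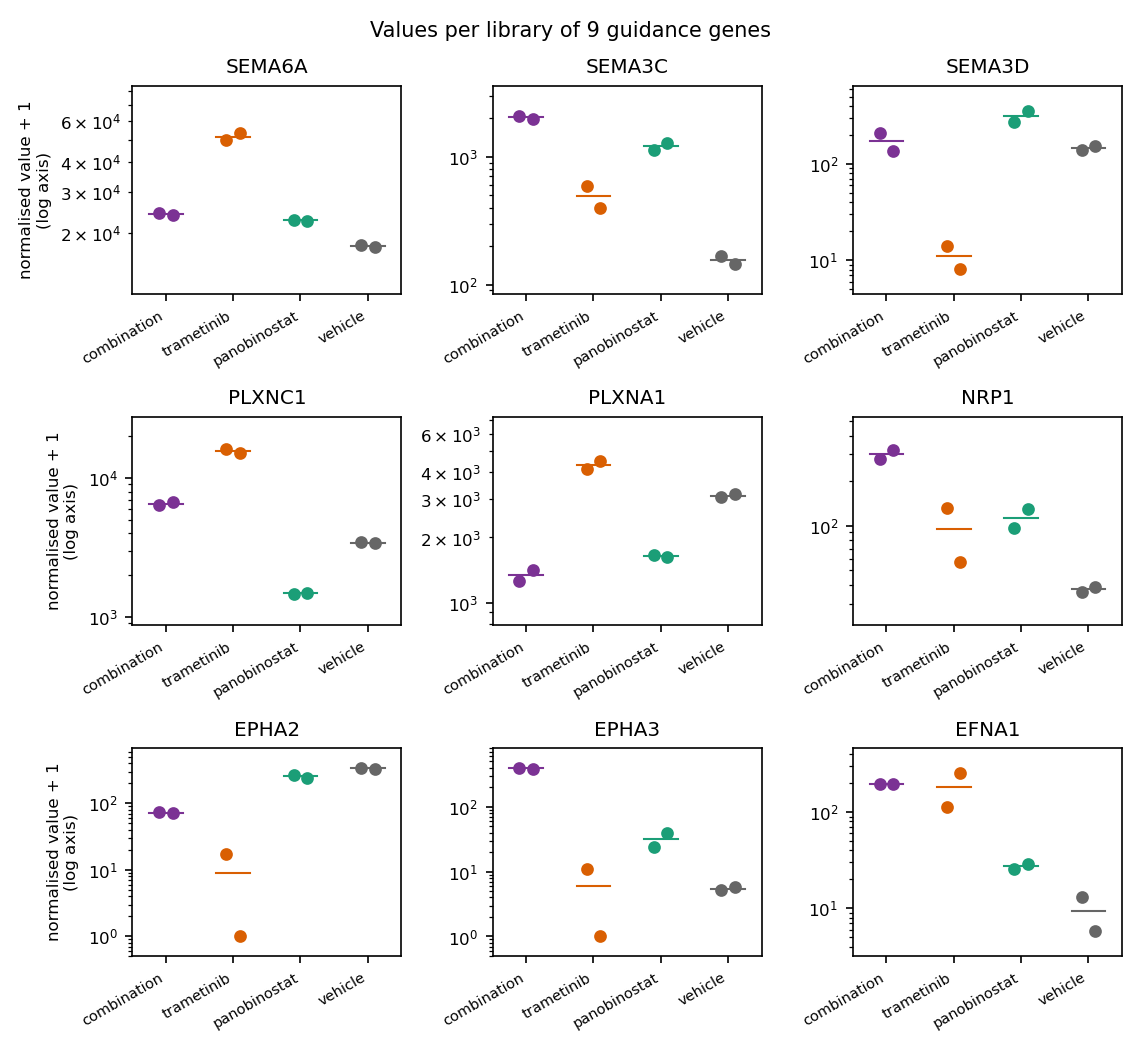
Normalised value + 1 (y axis, log scale, own range per panel) of 9 guidance genes in each library; points are libraries and short lines their group means, with groups along the x axis. SEMA6A and PLXNC1 are highest with trametinib alone, SEMA3C, NRP1 and EPHA3 highest in the combination, and EPHA2 and SEMA3D lowest with trametinib alone.

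Plexins are the semaphorin receptors. PLXNC1, which binds SEMA7A, showed opposite changes with the single drugs, at 6373 and 6672 in the combination, 16308 and 15211 with trametinib alone, 1468 and 1495 with panobinostat alone and 3452 and 3409 in vehicle. The trametinib libraries were the highest, the combination next, then vehicle, and the panobinostat libraries the lowest, with no overlap between any groups. Against vehicle it changed by 0.93 ± 0.058 (limma adjusted p = 1.84e-06) in the combination, 2.20 ± 0.058 (limma adjusted p = 1.62e-08) with trametinib and -1.21 ± 0.058 (limma adjusted p = 3.6e-06) with panobinostat. Adding panobinostat to trametinib changed it by -1.27 ± 0.058 (limma adjusted p = 9.4e-07), and adding trametinib to panobinostat by 2.14 ± 0.058 (limma adjusted p = 1.57e-07). The interaction was -0.06 ± 0.081 (limma adjusted p = 0.639), with a range of -0.11 to -0.01 over all alternatives run.

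PLXNA1, a receptor used with neuropilins by class 3 semaphorins, was at 1254 and 1418 in the combination, 4151 and 4507 with trametinib alone, 1655 and 1622 with panobinostat alone and 3065 and 3180 in vehicle. It was higher than vehicle in both trametinib libraries and lower in the 4 with panobinostat. The changes against vehicle were -1.23 ± 0.078 (limma adjusted p = 2.18e-06) in the combination, 0.47 ± 0.078 (limma adjusted p = 0.000831) with trametinib and -0.93 ± 0.078 (limma adjusted p = 4.67e-05) with panobinostat, and the combination differed from trametinib by -1.70 ± 0.078 (limma adjusted p = 9.4e-07). It differed from panobinostat alone by -0.30 ± 0.078 (limma adjusted p = 0.0222), a call that ended without combination replicate 1 (-0.21) or either panobinostat library (-0.28 and -0.31). PLXNA2, a receptor of SEMA6A, was at 306 and 274 in the combination, 419 and 458 with trametinib alone, 582 and 615 with panobinostat alone and 672 and 758 in vehicle. The combination was the lowest group and trametinib the next. It fell by 1.30 ± 0.13 in the combination (limma adjusted p = 2.64e-05) and by 0.70 ± 0.13 with trametinib (limma adjusted p = 0.00128), while -0.25 ± 0.13 with panobinostat did not pass. Relative to panobinostat the combination changed by -1.05 ± 0.13 (limma adjusted p = 0.000317), and relative to trametinib by -0.60 ± 0.13 (limma adjusted p = 0.00603), which ended without combination replicate 2 (-0.52).

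PLXND1 was at 690 and 703 in the combination, 648 and 572 with trametinib alone, 863 and 829 with panobinostat alone and 1148 and 1096 in vehicle, with all treated libraries under vehicle. The change was -0.69 ± 0.098 (limma adjusted p = 0.000318) in the combination and -0.88 ± 0.098 (limma adjusted p = 6.32e-05) with trametinib; with panobinostat it was -0.41 ± 0.098 (limma adjusted p = 0.0124) and ended without either panobinostat library (-0.44 and -0.38) or either vehicle library (-0.37 and -0.44). PLXNB1, the SEMA4D receptor, was at 1043 and 1123 in the combination, 1063 and 1151 with trametinib alone, 700 and 766 with panobinostat alone and 697 and 715 in vehicle. Both groups with trametinib were above both groups without it. The change was 0.62 ± 0.095 (limma adjusted p = 0.000526) in the combination and 0.65 ± 0.095 (limma adjusted p = 0.000381) with trametinib against vehicle, and 0.56 ± 0.095 (limma adjusted p = 0.0024) between the combination and panobinostat. PLXNB3, the SEMA5A receptor, was likewise higher in both groups with trametinib, at 329 and 368 in the combination, 339 and 325 with trametinib alone, 151 and 191 with panobinostat alone and 119 and 126 in vehicle. It changed by 1.50 ± 0.19 (limma adjusted p = 0.000129) in the combination, 1.43 ± 0.19 (limma adjusted p = 0.000172) with trametinib and, for the combination over panobinostat, 1.03 ± 0.19 (limma adjusted p = 0.00333).

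PLXNB2 was at 3724 and 3758 in the combination, 3196 and 2944 with trametinib alone, 3312 and 3496 with panobinostat alone and 3525 and 3393 in vehicle, a spread of small size across the groups. Its change with trametinib, -0.17 ± 0.064 (limma adjusted p = 0.0476), ended without either combination library (-0.17) or trametinib replicate 2 (-0.11) or either panobinostat library (-0.17) or either vehicle library (-0.15 and -0.20). The combination exceeded trametinib by 0.29 ± 0.064 (limma adjusted p = 0.00838), a call that ended without either combination library (0.29 and 0.28). PLXNA4 (0 to 21.4) passed nowhere and PLXNA3 was not tested, being at 0 in 7 of 8 libraries and at 1.17 in the other.

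The neuropilins are co-receptors for class 3 semaphorins and for VEGF, and moved in opposite directions. NRP1 was at 280 and 318 in the combination, 130 and 56.3 with trametinib alone, 94.8 and 129 with panobinostat alone and 34.9 and 38 in vehicle. Every treated library was above vehicle and the combination was the highest group. It rose by 3.00 ± 0.39 (limma adjusted p = 0.000181) in the combination. The rise of 1.21 ± 0.39 (limma adjusted p = 0.0272) with trametinib ended without either combination library (1.21) or trametinib replicate 1 (0.61) or either vehicle library (1.15 and 1.27), and that of 1.58 ± 0.39 (limma adjusted p = 0.0141) with panobinostat ended without either panobinostat library (1.80 and 1.36) or either vehicle library (1.52 and 1.64). Over trametinib the combination was higher by 1.79 ± 0.39 (limma adjusted p = 0.00736), which ended without either combination library (1.88 and 1.69) and moved without trametinib replicate 2 (1.19); over panobinostat it was higher by 1.42 ± 0.39 (limma adjusted p = 0.0266), which ended without either combination library (1.51 and 1.33) or either panobinostat library (1.20 and 1.64). NRP2, the more abundant of the pair, was at 1038 and 1024 in the combination, 1496 and 1472 with trametinib alone, 1644 and 1627 with panobinostat alone and 2103 and 2059 in vehicle. All treated libraries were below vehicle and the combination was the lowest group. NRP2 changed by -1.01 ± 0.069 (limma adjusted p = 2.93e-06) in the combination, -0.49 ± 0.069 (limma adjusted p = 0.000288) with trametinib, -0.52 ± 0.069 (limma adjusted p = 0.000436) from trametinib to the combination and -0.67 ± 0.069 (limma adjusted p = 0.00012) from panobinostat to the combination. Panobinostat alone gave -0.35 ± 0.069 (limma adjusted p = 0.00475), a call that ended without vehicle replicate 1 (-0.33).

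EPHA receptors are tyrosine kinases that bind mainly ephrin-As. EPHA2, the receptor of ephrin-A1 and a transcript known to be raised by RAS and ERK signalling in other cells, was at 72.6 and 70 in the combination, 16 and 0 with trametinib alone, 267 and 242 with panobinostat alone and 338 and 329 in vehicle. Both trametinib libraries were far under the other 6, and a count of 0 in trametinib replicate 2 allows a value of up to 3.014. The change with trametinib was -6.34 ± 1 (limma adjusted p = 0.000577). The combination libraries lay between trametinib and vehicle without overlap, a difference of -2.21 ± 1 (limma adjusted p = 0.0933) from vehicle that did not pass and passed without either trametinib library at the same value. Their difference from trametinib was 4.13 ± 1 (limma adjusted p = 0.0118), which ended without either combination library (4.10 and 4.16) and was 2.08 without trametinib replicate 2. Panobinostat alone did not pass (-0.39 ± 1), with a standard error pooled over all 4 groups, the trametinib libraries among them.

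EPHA3, a receptor of ephrin-As, was at 398 and 383 in the combination, 10 and 0 with trametinib alone, 23.4 and 38.3 with panobinostat alone and 4.21 and 4.75 in vehicle. The combination libraries were above the other 6, and the panobinostat libraries were above vehicle, with no overlap. In the combination it rose by 6.16 ± 1 (limma adjusted p = 0.000687) over vehicle and 6.88 ± 1 (limma adjusted p = 0.000784) over trametinib. Over panobinostat the rise was 3.66 ± 1 (limma adjusted p = 0.0253), a call that ended without either combination library (3.63 and 3.69) or either panobinostat library (3.32 and 4.00). The change with panobinostat alone, 2.50 ± 1 (limma adjusted p = 0.0875), did not pass in the fit of all 8 libraries and passed without either trametinib library at the same value. With trametinib, -0.72 ± 1 did not pass, and it was -2.45 without trametinib replicate 1, where it would have passed. Trametinib replicate 1, at 10, lay above both vehicle libraries and replicate 2, at 0, below both, so the direction rests on the library kept. The interaction for EPHA3 was 4.38 ± 1.4 (limma adjusted p = 0.0578) and passed without either trametinib library, at 6.11 without replicate 1 and 2.65 without replicate 2.

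EPHA7 was at 85.5 and 85.2 in the combination, 10 and 0 with trametinib alone, 72.4 and 64.5 with panobinostat alone and 9.63 and 4.75 in vehicle. All 4 libraries with panobinostat stood above the other 4. It rose by 3.46 ± 1 (limma adjusted p = 0.0181) in the combination, which ended without either combination library (3.46 and 3.47) or vehicle replicate 2 (3.02), by 3.15 ± 1 (limma adjusted p = 0.0425) with panobinostat, which ended without either combination library (3.15) or either panobinostat library (3.07 and 3.23) or either vehicle library (3.59 and 2.71), and by 4.70 ± 1 (limma adjusted p = 0.00699) from trametinib to the combination, which ended without either combination library (4.70) and was 2.97 without trametinib replicate 2. EPHA4, a receptor that binds both ephrin-As and ephrin-Bs, was at 63.2 and 27.4 in the combination, 18.1 and 14.1 with trametinib alone, 92.8 and 89.7 with panobinostat alone and 8.43 and 18.2 in vehicle. Panobinostat gave the highest values, and its rise of 2.78 ± 0.6 (limma adjusted p = 0.00742) ended without either panobinostat library (2.75 and 2.80) or vehicle replicate 1 (2.26). EPHA4 rose in the combination by 1.67 ± 0.6 (limma adjusted p = 0.0433), which ended without combination replicate 1 (1.08) or either panobinostat library (1.67) or either vehicle library (1.15 and 2.18). With trametinib it did not pass (0.33 ± 0.6). EPHA5, a receptor of ephrin-As, was lower in the 4 libraries with panobinostat, at 107 and 79.1 in the combination, 207 and 159 with trametinib alone, 71.4 and 108 with panobinostat alone and 167 and 172 in vehicle. It changed by -0.88 ± 0.29 (limma adjusted p = 0.0321) in the combination, -0.94 ± 0.29 (limma adjusted p = 0.0372) with panobinostat and -0.97 ± 0.29 (limma adjusted p = 0.0308) from trametinib to the combination. Those calls ended without combination replicate 2 (-0.66) or either vehicle library (-0.90 and -0.85) for the combination, without combination replicate 1 (-0.94) or panobinostat replicate 1 (-0.64) or either vehicle library (-0.96 and -0.92) for panobinostat and without either combination library (-1.18 and -0.76) or either vehicle library (-0.97) for the combination against trametinib. EPHA10 (15 to 48.7) passed nowhere, and EPHA6 and EPHA8 were not tested, with highest values of 8.16 and 3.06.

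EPHB receptors bind mainly ephrin-Bs. EPHB2 was at 224 and 189 in the combination, 64.2 and 121 with trametinib alone, 213 and 235 with panobinostat alone and 78.2 and 81.5 in vehicle. The 4 libraries with panobinostat were above the rest, by 1.35 ± 0.31 (limma adjusted p = 0.00492) for the combination over vehicle. Panobinostat alone raised it by 1.47 ± 0.31 (limma adjusted p = 0.0061), which ended without panobinostat replicate 2 (1.40), and the combination exceeded trametinib by 1.21 ± 0.31 (limma adjusted p = 0.0146), which ended without either combination library (1.09 and 1.34) and was 0.76 without trametinib replicate 1. EPHB1 had fewer than 50 in every library, at 35.1 and 36.5 in the combination, 33.1 and 47.2 with trametinib alone, 29.6 and 24.2 with panobinostat alone and 4.81 and 4.75 in vehicle, and all 6 treated libraries were above vehicle. It rose by 2.67 ± 0.58 (limma adjusted p = 0.00371) in the combination and 2.81 ± 0.58 (limma adjusted p = 0.00283) with trametinib; with panobinostat its rise of 2.26 ± 0.58 (limma adjusted p = 0.0158) ended without either panobinostat library (2.12 and 2.40) or either vehicle library (2.27 and 2.25). EPHB4, the partner of ephrin-B2 in blood vessels, was at 583 and 581 in the combination, 556 and 507 with trametinib alone, 474 and 502 with panobinostat alone and 641 and 623 in vehicle. Panobinostat lowered it by a log2 change of -0.37 ± 0.11 (limma adjusted p = 0.0269), which ended without either panobinostat library (-0.33 and -0.41) or either vehicle library (-0.35 and -0.39). EPHB3 (0 to 29.6) passed nowhere, and EPHB6 was not tested, with a highest value of 2.34.

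Among the ephrins, the membrane-anchored ligands of these receptors, EFNA1 moved most. EFNA1, the ligand of EPHA2, was at 197 and 195 in the combination, 111 and 255 with trametinib alone, 24.5 and 28.2 with panobinostat alone and 12 and 4.75 in vehicle. Both groups with trametinib were far above the groups without it, while EPHA2 was lowest with trametinib. EFNA1 rose by 4.51 ± 0.53 (limma adjusted p = 9.33e-05) in the combination, 4.29 ± 0.53 (limma adjusted p = 0.000126) with trametinib and 2.85 ± 0.53 (limma adjusted p = 0.00401) from panobinostat to the combination. With panobinostat it rose by 1.66 ± 0.53 (limma adjusted p = 0.0408), which ended without either combination library (1.66) or either panobinostat library (1.76 and 1.56) or vehicle replicate 2 (1.07). EFNA5 was at 302 and 283 in the combination, 170 and 111 with trametinib alone, 361 and 369 with panobinostat alone and 360 and 338 in vehicle. The trametinib libraries were the lowest, with a change against vehicle of -1.34 ± 0.21 (limma adjusted p = 0.000532), and the combination exceeded trametinib by 1.08 ± 0.21 (limma adjusted p = 0.00369). EFNB3 was at 685 and 721 in the combination, 570 and 491 with trametinib alone, 603 and 549 with panobinostat alone and 298 and 277 in vehicle, with all treated libraries above vehicle. Its change was 1.29 ± 0.12 (limma adjusted p = 2.72e-05) in the combination, 0.88 ± 0.12 (limma adjusted p = 0.00031) with trametinib and 1.00 ± 0.12 (limma adjusted p = 0.00043) with panobinostat. Over trametinib the combination was higher by 0.41 ± 0.12 (limma adjusted p = 0.0325), which ended without either combination library (0.45 and 0.37) or trametinib replicate 2 (0.30) or either panobinostat library (0.41) or either vehicle library (0.41).

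EFNA3 was at 328 and 409 in the combination, 299 and 243 with trametinib alone, 353 and 310 with panobinostat alone and 228 and 219 in vehicle. It rose by 0.71 ± 0.18 (limma adjusted p = 0.00842) in the combination and 0.56 ± 0.18 (limma adjusted p = 0.0399) with panobinostat, calls that ended without combination replicate 2 (0.55) or vehicle replicate 2 (0.68) for the combination and without combination replicate 2 (0.56) or either panobinostat library (0.47 and 0.65) or either vehicle library (0.59 and 0.53) for panobinostat. EFNA4 was at 194 and 233 in the combination, 188 and 362 with trametinib alone, 187 and 181 with panobinostat alone and 141 and 121 in vehicle. Trametinib replicate 2 was well above replicate 1, and the rise of 0.99 ± 0.29 (limma adjusted p = 0.0187) ended without either vehicle library (1.10 and 0.88) and was 0.52 without trametinib replicate 2. EFNA2 (37.2 to 106), EFNB1 and EFNB2 passed in no comparison. EFNB2, the vessel ligand of EPHB4, ranged from 96.4 to 178, and EFNB1 from 97.9 to 130.

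SLIT2, a secreted ligand of ROBO1 and ROBO2, was at 273 and 213 in the combination, 76.2 and 53.2 with trametinib alone, 309 and 350 with panobinostat alone and 148 and 151 in vehicle. Trametinib libraries were below vehicle and libraries with panobinostat above it, without overlap. It changed by -1.22 ± 0.24 (limma adjusted p = 0.00239) with trametinib and by 1.90 ± 0.24 (limma adjusted p = 0.000378) from trametinib to the combination. A rise of 1.13 ± 0.24 (limma adjusted p = 0.00715) with panobinostat ended without panobinostat replicate 2 (1.04) or either vehicle library (1.12 and 1.15), and one of 0.68 ± 0.24 (limma adjusted p = 0.0405) in the combination ended without either combination library (0.51 and 0.86) or either panobinostat library (0.68) or either vehicle library (0.67 and 0.70). SLIT1 (2.01 to 39.1) passed nowhere, and SLIT3 was at 0 in 7 libraries and at 0.602 in the other. NTN4, a netrin that binds laminin in basement membranes, was at 170 and 143 in the combination, 43.1 and 89.4 with trametinib alone, 92.8 and 93.8 with panobinostat alone and 19.9 and 23 in vehicle, above vehicle in all treated libraries. It rose by 2.81 ± 0.4 (limma adjusted p = 0.000325) in the combination and 2.08 ± 0.4 (limma adjusted p = 0.00427) with panobinostat. With trametinib the rise of 1.50 ± 0.4 (limma adjusted p = 0.0118) ended without vehicle replicate 1 (1.40) and was 0.98 without trametinib replicate 2, and the rise of 1.31 ± 0.4 (limma adjusted p = 0.0328) from trametinib to the combination ended without either combination library (1.19 and 1.43) or either panobinostat library (1.31) or either vehicle library (1.31) and was 0.79 without trametinib replicate 1.

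NTNG2, a netrin-like protein held to the membrane by a lipid anchor, was at 119 and 129 in the combination, 47.1 and 23.1 with trametinib alone, 76.5 and 99.8 with panobinostat alone and 20.5 and 15.8 in vehicle. The libraries with panobinostat were the highest. It rose by 2.72 ± 0.45 (limma adjusted p = 0.000757) in the combination, by 2.22 ± 0.45 (limma adjusted p = 0.00521) with panobinostat, which ended without panobinostat replicate 2 (2.03) or vehicle replicate 2 (2.04), and by 1.88 ± 0.45 (limma adjusted p = 0.0109) over trametinib, which ended without either combination library (1.94 and 1.82). NTNG1 (18.1 to 47.2) passed nowhere. UNC5D, a receptor of netrins and of FLRT proteins, was at 86.6 and 66.9 in the combination, 70.2 and 101 with trametinib alone, 42.8 and 27.2 with panobinostat alone and 0 and 8.71 in vehicle. All treated libraries were above vehicle, and vehicle replicate 1 had no read, which allows a value of up to 1.806. The log2 change was 4.63 ± 0.93 (limma adjusted p = 0.00242) in the combination and 4.78 ± 0.93 (limma adjusted p = 0.00205) with trametinib, 2.99 and 3.14 without vehicle replicate 1. With panobinostat it was 3.50 ± 0.93 (limma adjusted p = 0.0186) and ended without either panobinostat library (3.18 and 3.81) or vehicle replicate 1 (1.86). UNC5B (11 to 53) passed nowhere. NTN1, NTN3, NTN5, UNC5A, UNC5C and the netrin receptor DCC were too low to test, with highest values of 16.3, 25.1, 14.1, 12.1, 3.02 and 1.52; DCC had a read in 1 library.

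Whether a drug did the same alone and on top of the other was asked by the interaction, which is the effect of trametinib in the presence of panobinostat less its effect alone. SEMA6A and PLXNA1 departed downward and SEMA3D upward, and these 3 calls held in each of the 8 fits that left out 1 library. For SEMA6A the trametinib effect was 0.09 ± 0.047 with panobinostat and 1.54 ± 0.047 alone, an interaction of -1.45 ± 0.066 (limma adjusted p = 5.03e-06). For PLXNA1 it was -0.30 ± 0.078 with panobinostat and 0.47 ± 0.078 alone, an interaction of -0.77 ± 0.11 (limma adjusted p = 0.00141). SEMA3D fell with trametinib alone (-3.78 ± 0.36) and differed by -0.88 ± 0.36 with panobinostat present, an interaction of 2.90 ± 0.51 (limma adjusted p = 0.00423).

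In all, the interaction of 5 members was above 0 and of 5 below 0, with 42 not passing, against 10.2% and 9.04% of all genes, or 19.3% in either direction. Calls above 0 numbered 1 without either combination, either panobinostat or either vehicle library, 12 without trametinib replicate 1 and 8 without trametinib replicate 2. Calls below 0 numbered 2 without either combination, either panobinostat library or vehicle replicate 1, 3 without vehicle replicate 2, and 12 and 8 without trametinib replicates 1 and 2. EPHA2 had an interaction of 4.52 ± 1.4 (limma adjusted p = 0.052) and passed at 6.57 and 2.47 without trametinib replicates 1 and 2. UNC5D, at -3.64 ± 1.3 (limma adjusted p = 0.0842), passed without either trametinib library (-3.91 and -3.38) or vehicle replicate 2 (-5.28). The trametinib effects with and without panobinostat use no library in common: across the 52 members they correlated at r = 0.61, beside 0.57 across all 13320 genes tested, and 39 of 52 members (75%) had the same sign, beside 71.7% of all genes. The panobinostat effects with and without trametinib correlated at r = 0.53 across the members and 0.40 across all genes, with 38 members (73.1%) of the same sign, beside 61.7% of all genes. Genes of 1 library share its depth and are not independent replicates, so these are descriptions. The median size of the members' log2 change with trametinib was 0.39 in the presence of panobinostat and 0.86 alone, beside 0.36 and 0.65 for all genes. With panobinostat it was 0.78 in the presence of trametinib and 0.86 alone, beside 0.43 and 0.41 for all genes.

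**Figure D5:**
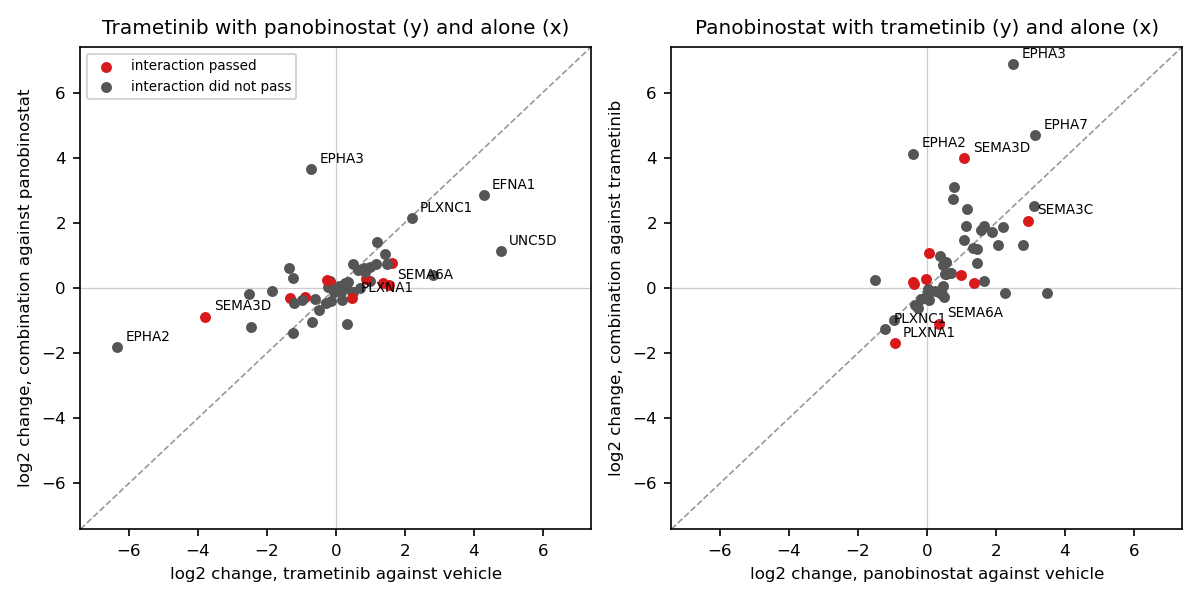
Log2 change of each of the 52 tested guidance genes for trametinib (left) and panobinostat (right), with the other drug present on the y axis and alone on the x axis; the dashed line marks equal effects and red points passed the interaction test. PLXNC1 lies close to the line in both panels, SEMA6A and SEMA3D lie away from it, and EPHA3 has its largest value for panobinostat added to trametinib (6.88).

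The other genes of the pathways were a list of 57 receptors, ligands and cytoplasmic effectors outside the families above, with 55 found in the table and 49 abundant enough to test. In the combination against vehicle 19 rose and 9 fell, with trametinib 22 and 10, and with panobinostat 12 and 1, with medians of 0.21, 0.38 and 0.08 beside 0.03, -0.07 and 0.00 for all genes. The share called was 57.1% in the combination, beside 50% of all genes, 65.3% with trametinib, beside 51.0%, and 26.5% with panobinostat, which was below the 30.5% of all genes. ROBO1, a SLIT receptor, rose in all 3, by 1.30 ± 0.09 in the combination, 1.02 ± 0.09 with trametinib and 0.81 ± 0.09 with panobinostat (limma adjusted p = 3.45e-06, 1.38e-05 and 0.00021). FLRT3, a membrane protein that binds UNC5 receptors, also rose in all 3. Its changes were 3.54 ± 0.2 in the combination, 1.45 ± 0.2 with trametinib and 1.57 ± 0.2 with panobinostat. So did the netrin receptor NEO1, by 1.26 ± 0.11, 0.78 ± 0.11 and 1.31 ± 0.11 in the same order. MICAL1 and MICAL2, enzymes that act on actin downstream of plexins, rose with trametinib by 2.12 ± 0.099 and 2.33 ± 0.19. They also rose in the combination, by 1.89 ± 0.099 and 1.39 ± 0.19, and did not pass with panobinostat (-0.07 ± 0.099 and 0.51 ± 0.19). ROCK1 and ROCK2, kinases downstream of RHOA, changed with trametinib by -0.87 ± 0.11 and -1.79 ± 0.15, and FLRT2 by -1.64 ± 0.16. In the combination ROCK1 changed by -0.36 ± 0.11 and ROCK2 by -0.71 ± 0.15, and FLRT2 did not pass (-0.11 ± 0.16). The ROCK1 call there ended without either combination library (-0.39 and -0.33) or either vehicle library (-0.34 and -0.38). In the combination the GTPase RAC1 changed by -0.50 ± 0.062 and ARHGEF11, an exchange factor for RHOA, by -0.55 ± 0.095. Between the combination and trametinib 15 of the 49 rose and 10 fell, or 51% beside 32.8% of all genes, and 6 rises and 5 falls held whichever library was left out. Between the combination and panobinostat 12 rose and 5 fell, or 34.7% beside 24.0% of all genes, and 6 rises and 1 fall held.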

How the data were processed

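RNA was sequenced in 8 libraries of 92.1 cells, made from total RNA with a NuGEN Ovation kit per the labels' protocols. The authors deposited 1 table of normalised signal values per gene and library; TopHat2 2.0.13, Cufflinks 2.2.1 and DESeq2 are named per the submitters' processing notes, with build hs37d5 for 4 libraries. The sources used here give no version of the authors' DESeq2, and no counter, annotation or use of strand. Within each library 100% of the values were whole multiples of 1 step (tolerance 1e-06), from which the depths of 6897784 to 16861001 reads were recovered, taking the step as 1 read. In trametinib replicates 1 and 2 and panobinostat replicate 2 the step (1.003, 1.005 and 1.008) lies too near 1 to be told from unscaled values by an independent check, so their depths and floors are less certain. Intervals and floors of 3 reads cover counting error only. Reads of overlapping or antisense genes may be split between them.

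Genes were tested in R 4.3.3 by limma 3.58.1 (trend on mean level, log2(value + 1)), over 13320 genes with a mean of at least 10. All 8 libraries entered 1 fit of 4 groups, with 4 residual and 5.32 prior degrees of freedom and no block, and Benjamini-Hochberg adjustment ran across every gene tested. An exact two-sided permutation test of 2 against 2 libraries cannot go below 0.333. Members given in full passed in a comparison in which the libraries did not overlap and the higher group averaged 50 or more; 37 did. EPHB1, SEMA3E and the members that passed nowhere were named after their values were seen. The members, lists and alternatives were chosen with earlier results of these data known. Alternatives were another pseudocount (10), a mean of at least 1 or no filter, scaling by library total, a fit of only the groups compared, a replicate block and leaving out each library. The glial marker list is not reported here. Lengths came from GENCODE v29 (GRCh38) and promoters from RefSeq (GRCh38.p14), neither of the files' build.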

Additional observations from a re-analysis of the deposited data

Results flagged for a closer look

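The effect of trametinib differed with and without panobinostat, by the interaction test in limma, for 10 members. The log2 effects were 0.09 with panobinostat and 1.54 alone for SEMA6A (-1.45), -0.88 with panobinostat and -3.78 alone for SEMA3D (2.90) and -0.30 with panobinostat and 0.47 alone for PLXNA1 (-0.77), where the value in parentheses is the difference. These 3 differences passed in each of the 8 fits that left out 1 library. For the other 7 members, the difference no longer passed without either combination, either panobinostat or either vehicle library. Their effects were -0.32 with panobinostat and -1.34 alone for EFNA5 (1.02), 0.76 with panobinostat and 1.64 alone for SEMA3C (-0.88), 0.17 with panobinostat and 1.37 alone for SEMA4F (-1.20), -0.28 with panobinostat and -0.88 alone for PLXND1 (0.60), 0.29 with panobinostat and 0.88 alone for EFNB3 (-0.59), 0.25 with panobinostat and -0.25 alone for EPHB4 (0.51) and 0.14 with panobinostat and -0.17 alone for PLXNB2 (0.31). Over all 8 fits that left out 1 library the difference ran from 0.71 to 1.33 for EFNA5, -1.17 to -0.59 for SEMA3C and -1.43 to -0.97 for SEMA4F. It ran from 0.51 to 0.69 for PLXND1, -0.70 to -0.48 for EFNB3, 0.44 to 0.57 for EPHB4 and 0.25 to 0.37 for PLXNB2. Except for SEMA4F, the ends of these ranges came from the fits without a trametinib library.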

How the results depend on the processing

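Of 127 calls of a member in a comparison, 126 remained with a pseudocount of 10, 124 when scaled by library total, 117 with a mean of at least 1, 112 with no filter on low values and 117 with the replicate number as a block. Replicate numbers did not pair the libraries: deviations of same-numbered libraries from their group means correlated between -0.0235 and 0.0218. A fit of only the groups compared kept 103 of 117 calls. The replicate block gave 3 members below 0 in the interaction in place of 5 and moved no other count of members by over 1.5 times. Counts of members also moved with only the groups compared, to 11 rising in the combination against trametinib and to 11 rising and 10 falling in the combination against panobinostat, and with no filter, to 3 above and 2 below 0 in the interaction. The cause was not tested. Leaving out 1 library gave counts of 11 to 21 rising and 8 to 16 falling with trametinib, 9 to 27 and 2 to 7 with panobinostat, and 20 to 31 and 4 to 7 in the combination against vehicle. The ranges were 7 to 26 and 4 to 7 against trametinib, 4 to 11 and 2 to 9 against panobinostat, and 1 to 12 above and 2 to 12 below 0 in the interaction. The high ends came without a trametinib library, whose spread enters the error of every comparison. SEMA6C reversed from -1.36 to 1.77 with trametinib against vehicle without trametinib replicate 2, where it is at 0, and was -4.49 without trametinib replicate 1; both passed. In all, 74 calls held whichever library was left out. Tests on recovered read counts by edgeR and DESeq2, which had been planned, were not run. Depth limits members near the floor of 3 reads per library, although trametinib replicate 2, with 7 tested members at 0, was not the shallowest library.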
